A study of Mus musculus with 6 samples.

Results

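T cell lineage and signalling genes were examined in splenic B cell preparations from p80HT and wild-type (WT) mice. The 33 genes, listed by their platform symbols, encode the invariant chains of the T cell receptor (TCR) complex, coreceptors and other surface molecules, kinases and adaptors of TCR signalling, lineage transcription factors and inhibitory receptors. Of these, 31 had a probeset with a single gene symbol and are described among 19938 genes measured in the same way. Lck and Tcf7 are not analysed here. The p80HT mice carry a human p80HT coding sequence, a truncated form of NF-κB2 found in lymphomas. An H-2Kb promoter with an immunoglobulin μ enhancer drives it in T as well as B lymphocytes. The 3 p80HT mice had M-protein in serum, the 3 WT mice were littermates without the transgene, and all were 1 year old on a C57BL/6J x SJL/J background. Spleen cells were pulled out by an antibody to B220 (the CD45 isoform typical of B cells) with magnetic beads, and each mouse gave 1 Affymetrix Mouse Gene 1.0 ST array.

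In the T cell receptor complex, the clonally variable receptor chains bind antigen, and the CD3 chains with the CD3ζ chain carry the signal across the membrane. The kinase LCK, brought close by the coreceptors CD4 or CD8, phosphorylates these chains, ZAP-70 docks on them, and the adaptor LAT then assembles the enzymes that lead to NF-κB, NFAT and MAP kinase activation. B cells use a parallel cascade with other receptor chains and do not need the CD3 chains.

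The deposited values are log2 signals of probesets. Each change below is the mean of p80HT minus the mean of WT for the same probeset, on the log2 scale. Levels of different probesets stand side by side only in sums over a list and where a signal is called high, low or largest. They do not measure relative transcript amounts. "Rose" and "fell" are used of genes that changed 1.5-fold or more and had p under 0.01 in limma before adjustment, the limits used by the study. Such p-values set a change against the spread among 3 mice per group, which limma moderates with the spread of all genes. The labelled cell type was checked with the B cell genes Ms4a1 (CD20), at 12.99, 13.12 and 13.00 in WT 1 to 3 and at 13.03, 12.88 and 11.77 in p80HT 1 to 3, and Cd79a, at 12.10, 12.47 and 12.39 in WT and 12.15, 12.06 and 10.81 in p80HT. The mouse's own Nfkb2 gene was not called (-0.17). The array of p80HT 3 stood apart. Over all probesets its correlation with the other arrays was 0.934 to 0.943, against 0.983 to 0.996 among the rest. Salivary and lacrimal gland transcripts were abundant on it alone, such as Pip at 13.70 against at most 5.51 elsewhere (chosen after its values were seen). The T cell genes are therefore described with and without that array. Without it, the p80HT spread behind a p-value is that of p80HT 1 and 2 alone.

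Most T cell genes were higher in p80HT preparations, Cd3g and Cd3e most of all. Changes were above 0 for 29 of the 31 (45.1% of all genes), of which Cd2, Trat1, Lef1 and Maf were below 0 when each array was centred on its median. Without p80HT 3, 25 were above 0 (56.3%). Of the 31, 6 rose (Cd3e, Cd3g, Bcl11b, Gata3, Foxp3 and Lag3), 1 fell (Satb1) and 24 did not pass. Over all genes tested, 1.22% rose and 0.968% fell. Without p80HT 3, 14 rose, 1 fell and 16 did not pass, beside 2.01% and 1.45% of all genes. The 8 added were Cd3d, Cd247, Cd8a, Cd8b1, Cd6, Thy1, Lat and Themis. Without WT 1, 3 rose (158 of the 19938 genes), and without p80HT 2, 14 did (314 of the 19938). The median change of the 31 was 0.94 with all arrays and 0.54 without p80HT 3, while that of all genes was -0.02 and 0.04.

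After Benjamini-Hochberg adjustment over all genes, limma called 0 of the 31 at 0.05 with all 6 arrays, although 18 had an unadjusted p under 0.05. The background was 0.0502% of genes higher and 0.00502% lower, and the lowest adjusted p among the 31 was 0.0979, for Satb1. Without p80HT 3, 14 were higher and 1 lower at this limit, against 2.56% and 2.11% of all genes. The groups did not overlap for 21 of the 31 with p80HT higher (8.86% of all genes) and for Satb1 with p80HT lower (11.9%). Without p80HT 3 these counts were 22 (19.7%) and 3 (20.5%).

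**Figure D1:**
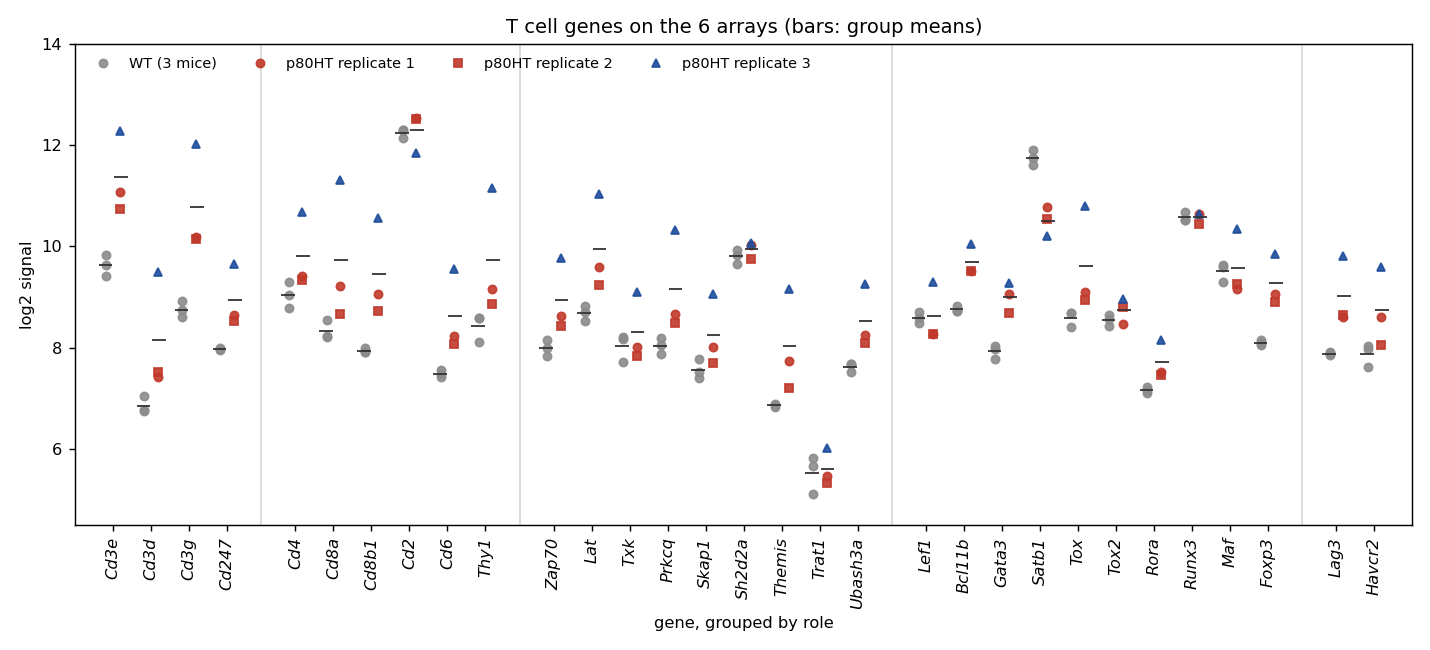
Log2 signal (vertical axis) of the 31 T cell genes (horizontal axis, ordered by role: TCR complex, coreceptors and surface, signalling, lineage factors, inhibitory receptors), 1 point per mouse, with bars at the group means. p80HT 3 (triangles) is the highest of the 6 arrays for 28 of the 31 genes, and p80HT 1 and 2 also lie above WT for most CD3 and coreceptor genes.

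The size of the changes differed among the 3 p80HT mice. The median of the 31 genes, each taken relative to its WT mean, was 0.62 in p80HT 1, 0.35 in p80HT 2 and 1.67 in p80HT 3, against -0.11, 0.10 and 0.00 in WT 1 to 3. p80HT 3 was the highest of the 6 arrays for 28 of the 31 (27.8% of all genes), and p80HT 1 lay above p80HT 2 for 27 of them (49.1% of all genes). In bulk preparations, a different number of cells of a type and a different amount of RNA per cell cannot be told apart.

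The 4 genes of the TCR complex had the highest median of the roles. All had p80HT values above every WT value, which held for 8.86% of all genes. Their median change was 1.52. Of the 4, 2 rose with all arrays (1.22% of all genes). All 4 rose without p80HT 3 (2.01%), with a median of 0.95 there. Cd3g, the γ chain, was at 8.60, 8.91 and 8.74 in WT and at 10.18, 10.15 and 12.02 in p80HT. It had the largest change of the 31 (2.03, SE 0.48, limma adjusted p = 0.256), and without p80HT 3 it still ranked first (1.41, adjusted p = 0.0003). Its call with all arrays was lost when WT 1 (1.96), WT 2 (2.12) or WT 3 (2.03) was left out.

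Cd3e, the ε chain, was at 9.41, 9.83 and 9.63 in WT and at 11.07, 10.75 and 12.29 in p80HT, a rise of 1.74 (SE 0.38, limma adjusted p = 0.211) that remained at 1.28 without p80HT 3 (adjusted p = 0.0015) and lost its call without WT 1 (1.64). p80HT 1 and 2 were about as far above WT as they were below p80HT 3. Cd3d, the δ chain, was at 6.76, 7.05 and 6.75 in WT and 7.43, 7.51 and 9.50 in p80HT (1.29, or 0.62 without p80HT 3). Cd247, which encodes CD3ζ, was at 7.95, 7.97 and 7.999 in WT and 8.64, 8.52 and 9.65 in p80HT (0.96, or 0.61 without p80HT 3). For both, p80HT 1 and 2 lay close together above a narrow WT range. Of 11 listed receptor chain genes only Ptcra, the pre-TCR α chain of thymocytes, had a single-symbol probeset, and it was not called (-0.22). The rearranging α and β chain genes are not analysed here.

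Cd3g, Cd3d and Cd3e lie in a cluster on mouse chromosome 9. Cd3g and Cd3d are transcribed away from each other from start sites 1355 bases apart, and the Cd3g and Cd3e start sites are 29180 bases apart. The 250 bases before each start site (RefSeq, GRCm38.p6) are shown because the 3 neighbours were higher together. They lie at chr9:44980432-44980681 on the minus strand for Cd3g, at chr9:44981536-44981785 on the plus strand for Cd3d and at chr9:45009612-45009861 on the minus strand for Cd3e. Capitals mark matches on either strand to 6 motifs of lymphoid factors.
Cd3g: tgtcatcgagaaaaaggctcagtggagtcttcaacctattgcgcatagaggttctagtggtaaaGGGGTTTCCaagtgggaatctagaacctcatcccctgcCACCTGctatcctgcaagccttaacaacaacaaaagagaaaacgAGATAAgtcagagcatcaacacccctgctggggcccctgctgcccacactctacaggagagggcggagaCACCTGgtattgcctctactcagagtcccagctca
Cd3d: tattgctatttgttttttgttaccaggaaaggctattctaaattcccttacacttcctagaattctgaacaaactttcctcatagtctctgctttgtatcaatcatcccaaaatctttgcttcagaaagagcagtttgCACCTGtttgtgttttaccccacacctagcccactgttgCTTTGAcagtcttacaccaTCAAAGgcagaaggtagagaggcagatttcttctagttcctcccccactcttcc
Cd3e: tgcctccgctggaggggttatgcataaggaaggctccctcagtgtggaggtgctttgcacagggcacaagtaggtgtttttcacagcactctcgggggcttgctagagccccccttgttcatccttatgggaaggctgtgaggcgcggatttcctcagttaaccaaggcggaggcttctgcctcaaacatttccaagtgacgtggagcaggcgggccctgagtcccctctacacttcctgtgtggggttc

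The Cd3g window held GGNNTTTCC, part of a common κB motif, 186 bases before the start, AGATAA, the motif of GATA factors, at 104, and CAGGTG (E proteins) at 148 and 35. The Cd3d window held CTTTGA (TCF1 and LEF1) at 73 and 54 and CAGGTG at 112. The Cd3e window held none of the 6, the others being TGTGGT (RUNX) and CGGAAG (ETS). No matches of different motifs overlapped. Among 32851 mouse promoter windows of this length, these letters were found in 4.93% (κB), 9.99% (GATA), 17.2% (E proteins), 13.8% (TCF1 and LEF1), 14.05% (RUNX) and 13.6% (ETS). In the 38 windows on hand for 21 of the 31 genes they were found in 1, 3, 8, 8, 5 and 0. A match is a description of the letters only.

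The coreceptor and other surface genes had a median change of 1.22. Of the 6, 5 were higher in every p80HT mouse than in any WT mouse (8.86% of all genes). None of the 6 rose with all arrays, and 4 did without p80HT 3 (2.01% of all genes), where the median was 0.60. Cd8b1, the CD8 β chain, was at 7.92, 7.99 and 7.91 in WT and 9.06, 8.72 and 10.56 in p80HT (1.504, SE 0.44, limma adjusted p = 0.339, and 0.95 with an adjusted p of 0.0023 without p80HT 3). WT values spanned a narrow range, and p80HT 1 and 2 lay clearly above it.

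Cd8a, the CD8 α chain, was at 8.23, 8.54 and 8.20 in WT and 9.22, 8.67 and 11.31 in p80HT (1.41, or 0.62 without p80HT 3, adjusted p = 0.0734). p80HT 2 was close to WT 2, and p80HT 3 exceeded the mean of p80HT 1 and 2 by 2.37, the widest such gap among the 31 genes. Cd4, the coreceptor for MHC class II, was at 8.78, 9.29 and 9.04 in WT and 9.41, 9.33 and 10.68 in p80HT (0.77, not called). Without p80HT 3 its difference was 0.33 (adjusted p = 0.225), with p80HT 2 only just above WT 2.

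Cd6, a scavenger receptor family protein of T cells, had WT values of 7.41 to 7.55 and p80HT values of 8.23, 8.08 and 9.55. Thy1, the pan-T cell glycoprotein of mice, was at 8.11, 8.59 and 8.58 in WT and 9.17, 8.86 and 11.16 in p80HT. Neither was called with all arrays (1.14 and 1.30), and both rose without p80HT 3 (0.67 and 0.59). Cd2, an adhesion molecule that mouse B cells also express, went another way among the mice. It was at 12.14 to 12.30 in WT, at 12.54 and 12.52 in p80HT 1 and 2, and at 11.85 in p80HT 3, the lowest of the 6 arrays.

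**Figure D2:**
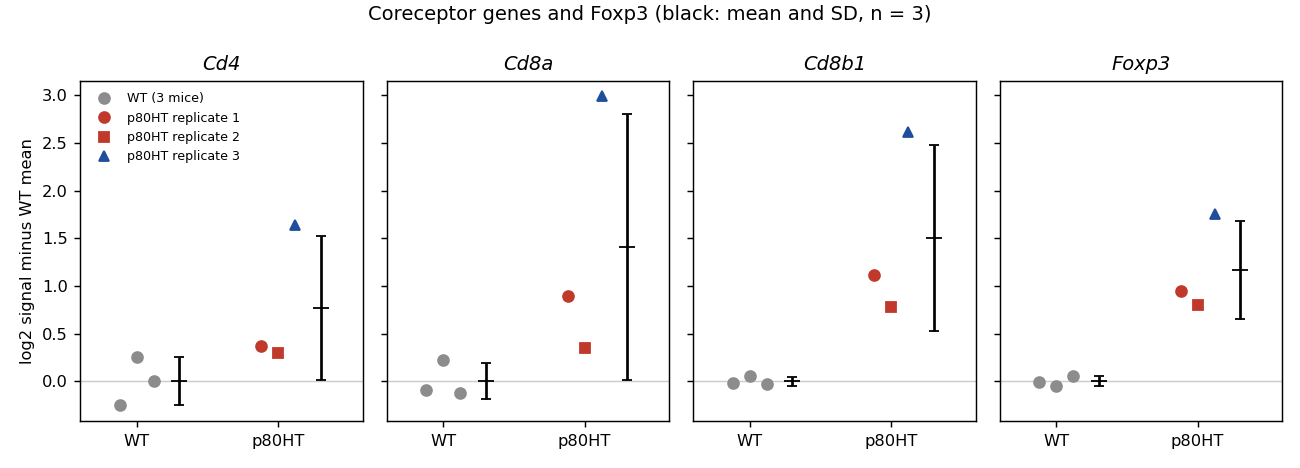
Log2 signal minus the WT mean of the same gene (vertical axis) for the coreceptor genes Cd4, Cd8a and Cd8b1 and for Foxp3, 1 point per mouse, with mean and SD (n = 3) in black. Cd8b1 and Foxp3 are clear of WT in all 3 p80HT mice, whereas p80HT 2 is near WT for Cd4 and Cd8a.

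Among the 9 measured signalling genes, the median change was 0.91, yet none rose with all arrays and 2 did without p80HT 3. Lat, the membrane adaptor, was at 8.52, 8.83 and 8.71 in WT and 9.59, 9.24 and 11.04 in p80HT (1.27, SE 0.43, limma adjusted p = 0.402). Without p80HT 3 it rose by 0.73 (adjusted p = 0.0174). Zap70, the kinase that docks on CD3, was at 7.84, 8.15 and 7.99 in WT and 8.62, 8.42 and 9.77 in p80HT (0.94). Prkcq, the protein kinase C isoform of the TCR synapse, was at 7.87, 8.20 and 8.04 in WT and 8.66, 8.50 and 10.32 in p80HT (1.12). Both were short of 1.5-fold without p80HT 3 (0.53 and 0.54), although their adjusted p was then 0.0441 and 0.0404.

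Themis, a regulator of thymocyte selection, was at 6.82 to 6.88 in WT and at 7.73, 7.20 and 9.16 in p80HT, and rose without p80HT 3 (0.61) and without p80HT 2 (1.59) but not with all arrays (1.17). Ubash3a, a phosphatase family member that restrains TCR signals, was at 7.52 to 7.68 in WT and at 8.25, 8.09 and 9.25 in p80HT (0.91, and 0.55 without p80HT 3). For these 5 signalling genes the groups did not overlap. They did overlap for Skap1, an adaptor for integrin activation (0.69), Txk, a TEC family kinase (0.28), Sh2d2a, an adaptor for LCK (0.14), and Trat1, an adaptor bound to the TCR (0.07). Txk and Trat1 were lower in p80HT without p80HT 3 (-0.12 and -0.14), and Trat1 was the one gene with a mean signal under the 25th percentile of all genes.

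A further 26 genes of TCR signalling, 24 of them measured, had calls in both directions. Of these, 4 rose and 1 fell with all arrays, 5 rose and 1 fell without p80HT 3, and their median was -0.12 (-0.02 without p80HT 3). Lcp2, which encodes the adaptor SLP-76 (1.29), Cd5, an inhibitory receptor of T cells and B-1 cells (1.10), Ptpn22, a phosphatase (1.01), and Cd28, the costimulatory receptor (0.92), rose, and the kinase gene Tec fell (-1.40). Without p80HT 3 these changes were 0.82, 0.79, 1.14, 0.87 and -1.04. B cells also express Lcp2, Ptpn22 and Tec. The study's own tables, drawn from these samples, hold Ptpn22 and Cd28, so that these are not independent evidence of direction. Calls were lost without any single WT array for Lcp2 (1.24 to 1.33) and without p80HT 1 (1.46), without WT 1 (0.99) or WT 3 (1.10) for Cd5, and without WT 2 for Tec (-1.32).

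**Figure D3:**
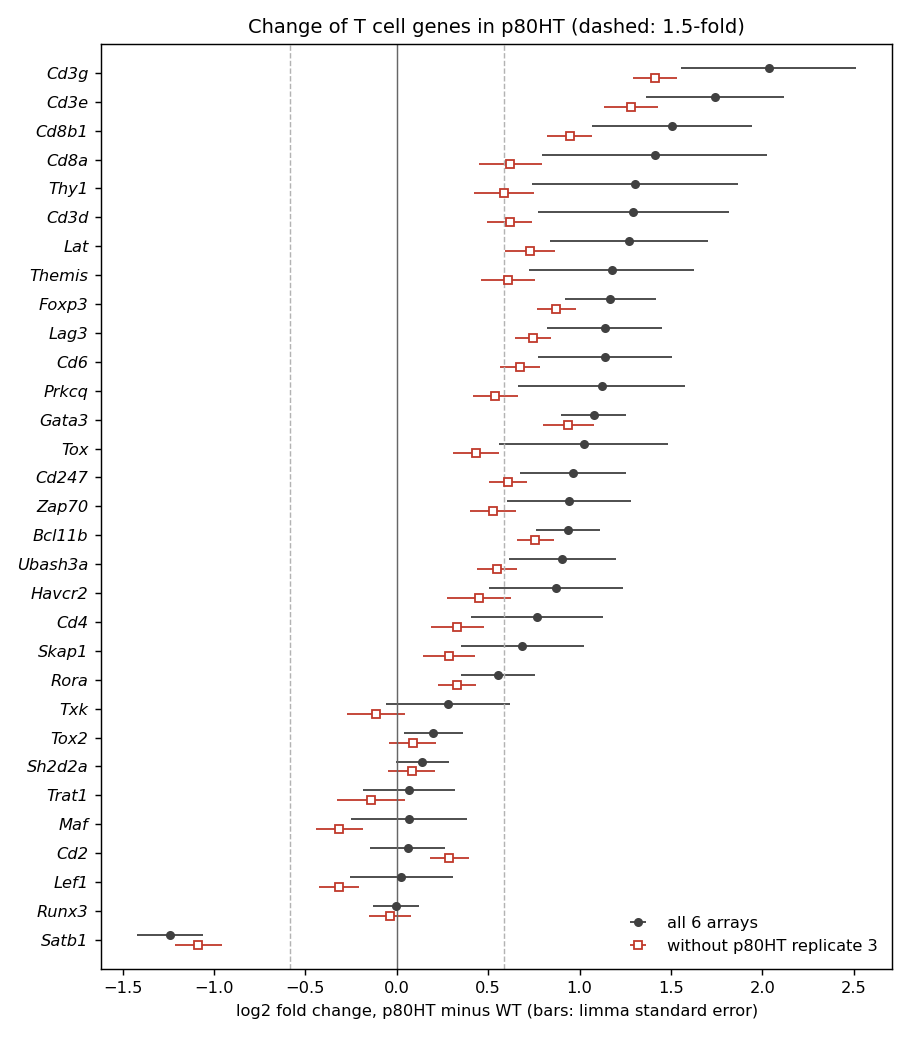
Change of each of the 31 T cell genes, p80HT minus WT (horizontal axis, log2, bars are limma standard errors), with all 6 arrays (filled circles) and without p80HT 3 (open squares). Dashed lines mark 1.5-fold. Without p80HT 3 the change is lower for 29 genes, and the standard errors are shorter for all 31.

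The lineage factors split into those that rose, 1 that fell and those that did not pass. Of 10 measured, 3 rose and 1 fell with all arrays as well as without p80HT 3, and their median was 0.38 (0.21 without p80HT 3). Gata3, required for CD4 T cell development and type 2 helper cells, was at 7.78, 8.02 and 7.97 in WT and 9.05, 8.67 and 9.28 in p80HT (1.08, SE 0.18, limma adjusted p = 0.136). Bcl11b, the T cell commitment factor, was at 8.73, 8.82 and 8.72 in WT and 9.52, 9.51 and 10.05 in p80HT (0.94, SE 0.17, limma adjusted p = 0.163). In both genes p80HT 3 stood only 0.41 and 0.54 above the mean of p80HT 1 and 2, much less than in the CD3 genes.

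Foxp3, the defining factor of regulatory T cells, was at 8.10, 8.05 and 8.15 in WT and at 9.05, 8.89 and 9.86 in p80HT (1.17, SE 0.25, limma adjusted p = 0.206). Satb1, a chromatin organizer of thymocytes that naive lymphocytes also express, was the single gene that fell. It was at 11.75, 11.90 and 11.60 in WT and 10.79, 10.54 and 10.20 in p80HT (-1.24, SE 0.18, limma adjusted p = 0.0979). Gata3, Bcl11b, Foxp3 and Satb1 kept their calls when each array in turn was left out, with changes of 0.94 to 1.24, 0.76 to 1.03, 0.87 to 1.35 and -1.38 to -1.09. The study's tables from these samples hold Gata3, Bcl11b and Satb1, which are not independent evidence.

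Tox, a factor of CD4 lineage development and of exhausted T cells, was at 8.40, 8.68 and 8.69 in WT and 9.11, 8.94 and 10.79 in p80HT (1.02, not called, 0.43 without p80HT 3). Rora, a factor of innate and type 17 lymphocytes, was at 7.10, 7.17 and 7.22 in WT and 7.52, 7.46 and 8.16 in p80HT (0.55, not called). Values of both were higher in every p80HT mouse than in any WT mouse. The other lineage factors overlapped between groups. Changes were 0.20 for Tox2, a factor of follicular helper T cells, 0.07 for Maf, which drives helper cytokine genes, 0.03 for Lef1, the partner of TCF1, and -0.01 for Runx3, the factor of the CD8 lineage. Runx3 was also high in the WT B cell preparations (mean 10.58). Without p80HT 3, Lef1 and Maf were both at -0.31 with all remaining p80HT values below WT.

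Of the inhibitory receptors, Lag3, a receptor for MHC class II on activated and regulatory T cells, was at 7.85, 7.91 and 7.89 in WT and 8.60, 8.65 and 9.81 in p80HT (1.14, SE 0.31, limma adjusted p = 0.326). Without p80HT 3 its change was 0.74 (adjusted p = 0.0031). Its call was lost without WT 1 (1.12), WT 2 (1.15) or WT 3 (1.14), although the 3 WT values lay within a narrow range. Havcr2, which encodes TIM-3 and is also expressed by myeloid cells, was at 7.98, 8.04 and 7.62 in WT and 8.60, 8.06 and 9.60 in p80HT (0.87, not called). p80HT 2 was only just above WT 2. Among 7 other measured inhibitory receptor genes, Tigit (1.54, 1.15 without p80HT 3) and Ctla4 (1.27, 1.46 without p80HT 3) rose.

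Which T cell subset the rises resembled was examined in lists of subset genes and in the difference between coreceptors within each array. Over all genes, 1.22% rose with all arrays and 2.01% without p80HT 3, and 8.86% had groups apart with p80HT higher. These shares stand beside each list of subset genes. The regulatory list held the most calls. Of 11 measured regulatory genes, 7 rose with all arrays and 8 without p80HT 3, none fell, the groups did not overlap for 10, and the median was 1.03 (0.76 without p80HT 3). Besides Foxp3, these were Ikzf2, the Ikaros family factor Helios (1.48), Itgae, the integrin chain CD103 (1.35), Ctla4, the CD28 family inhibitor (1.27), Nrp1, neuropilin-1 (1.24), Izumo1r, folate receptor 4 (0.93), and Tnfrsf18, which encodes GITR (0.77). Ctla4 was at 8.22, 8.84 and 8.87 in WT and 10.18, 10.01 and 9.53 in p80HT, so that here p80HT 3 was the lowest of the p80HT mice. Itgae was at 6.99, 6.89 and 6.997 in WT and 8.06, 7.95 and 8.92 in p80HT. The study's tables hold Ikzf2, Izumo1r and Tnfrsf18. Some of these genes are not restricted to regulatory T cells, since Itgae also marks CD8 T cells and dendritic cells, and Nrp1 dendritic cells. The call of Nrp1 was lost without any single WT array (1.15 to 1.31). Of the 4 regulatory genes not called with all arrays, Gpr83 (0.01) was the one whose groups overlapped.

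Of 16 CD8 and cytotoxic genes, 3 rose with all arrays and 7 without p80HT 3, none fell, the groups did not overlap for 10, and the median was 1.04 (0.50 without p80HT 3). Gzmk, a granzyme, was at 7.34, 7.16 and 7.02 in WT and 8.85, 8.59 and 10.27 in p80HT (2.07, or 1.55 without p80HT 3). Ccl5, a chemokine of effector lymphocytes (1.36), and Nkg7, a granule protein (1.31), also rose. Cytotoxic genes are not restricted to CD8 T cells. The other cytotoxic genes were not called with all arrays. Of these, Ctsw (1.17) and Eomes (1.13) had groups that did not overlap, and both rose without p80HT 3 (0.60 each). The groups also did not overlap for Klrc1 (0.95), Crtam (0.92) and Klrk1 (0.90). They did for Gzma, with a change of -0.18, for the perforin gene Prf1, with one of 0.28, for Gzmm (0.43) and for Klrd1 (0.64). Gzmb (1.36) was at 7.74 and 6.90 in p80HT 1 and 2 and at 10.31 in p80HT 3, against 6.72 to 7.15 in WT. The call of Ccl5 was lost without WT 1 (1.30) or WT 2 (1.33), and that of Nkg7 without WT 1 (1.37), WT 2 (1.19) or p80HT 1 (1.33).

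Of 6 CD4 helper genes, 2 rose with all arrays, Tnfrsf4, which encodes OX40 (1.26), and Cd28, and Icos, an inducible costimulator (1.56, and 0.89 without p80HT 3), joined them without p80HT 3. The median was 0.85 (0.60 without p80HT 3). Zbtb7b, the ThPOK factor that sets the CD4 lineage, was at -0.25 and Cd40lg, the CD40 ligand of helper cells, at 0.14, neither called. Tnfrsf4 and Cd28 are in the study's tables, and Cd28 is shared by CD4 and CD8 T cells. The number of calls was not tested between lists, which differ in size and in how restricted their genes are.

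**Figure D4:**
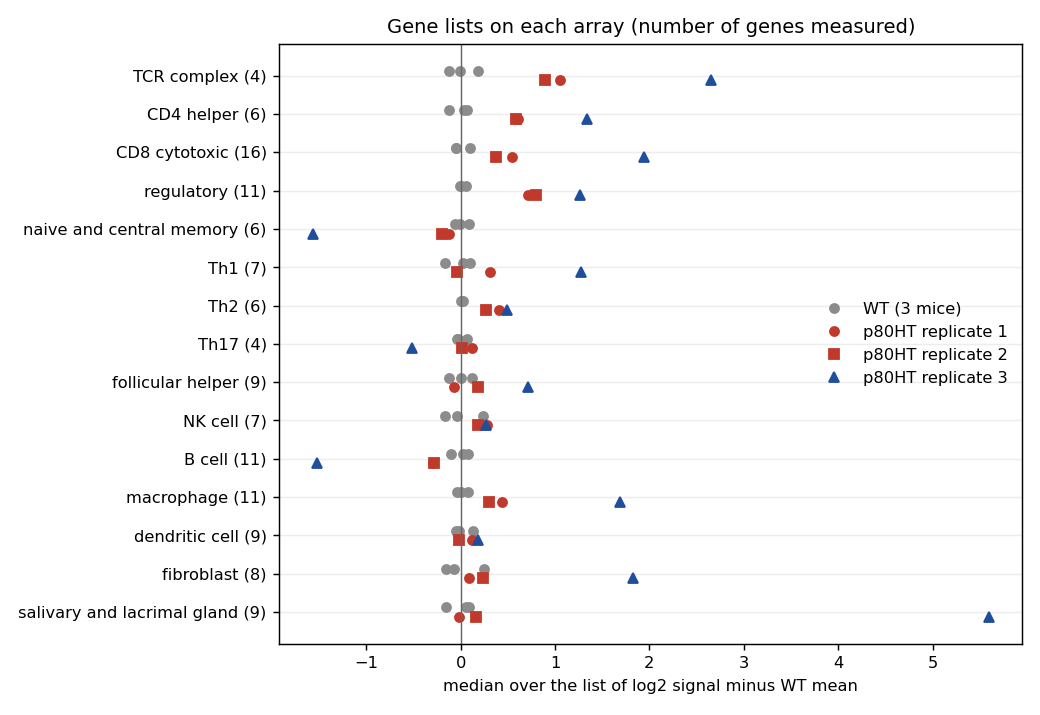
Median over each gene list of the log2 signal minus the WT mean of the gene (horizontal axis), 1 point per mouse, with the number of measured genes in parentheses. TCR complex, CD4 helper, CD8 cytotoxic and regulatory lists lie above WT in all p80HT mice, and so do the Th2 and macrophage lists. In the regulatory list p80HT 3 (1.26) is less far from p80HT 1 (0.71) and 2 (0.79) than in the CD8 list (1.95 against 0.55 and 0.38).

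Between coreceptors, the change of Cd8b1 exceeded that of Cd4 by 0.74. Relative to its WT mean, the within-array difference of Cd8b1 and Cd4 was 0.75, 0.48 and 0.98 in p80HT 1 to 3 and 0.23, -0.20 and -0.03 in WT 1 to 3. The groups did not overlap, and the exact permutation test (2-sided) gave p = 0.1 and 0.2 after adjustment over the 3 differences tested. For Cd8a against Cd4 the excess was 0.64 (exact permutation p = 0.2), or 0.29 without p80HT 3, and the groups overlapped. For Foxp3 against Cd4 it was 0.40 (exact permutation p = 0.2), or 0.54 without p80HT 3. With 3 arrays per group, 0.1 is the lowest p that this test allows, so it could not separate the CD4, CD8 and regulatory markers at 0.05 whatever their values.

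Helper subsets showed few calls with all arrays. Of 6 measured type 2 genes, Gata3 and the chemokine receptor gene Ccr8 (1.33), which regulatory T cells also express, rose, while the cytokine genes Il4 (-0.06), Il5 (0.03) and Il13 (-0.04) were not called. Of 7 type 1 genes none rose and Stat4 fell (-0.99). None of 4 type 17 genes was called, Il23r being at 0.47 and Ccr6 at -0.47. Stat4 and Ccr6 were high in the WT B cell preparations (means 11.17 and 10.59), so these lists do not describe T cells alone. Of 9 follicular helper genes none rose with all arrays, and Bcl6, which the study's tables hold and germinal centre B cells express, fell (-0.65). Without p80HT 3, Icos rose (0.89) and Bcl6 (-0.63) and Cd200 (-0.68) fell. Of 6 naive and central memory genes, Satb1 fell and none rose with all arrays (median -0.61, or -0.17 without p80HT 3). Il7r was at 1.62 with groups that did not overlap, and rose without p80HT 3 (0.87). Ccr7 (-0.95), Klf2 (-0.65) and S1pr1 (-0.58) were high in the WT B cell preparations (means 13.15, 12.40 and 11.02), so this list does not describe T cells alone. With all arrays none of 6 thymocyte genes was called, Rag1 being at -0.68 and Ccr9 at -0.43, and without p80HT 3 Cd1d1, which B cells also express, rose (1.09). Neither fit called Sox13 (0.10) or Cd163l1 (0.01), the gamma delta genes that were measured. The call of Ccr8 was lost without any single WT array (1.30 to 1.35), that of Stat4 without WT 2 or 3 or p80HT 1 or 2 (-0.94 to -0.84), and that of Bcl6 without WT 2 or 3 or p80HT 2 (-0.64 to -0.56).

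Markers of other cells also differed between the groups, and their part in the T cell result was not tested. Of 7 measured NK cell genes none was called (median 0.31), with Fcer1g at 0.82 and Klra3 at 0.40. The NK receptor gene Ncr1 was at 7.90 to 8.82 in WT and 8.40 to 8.81 in p80HT, within the WT range. The log2 of the summed NK signal was 11.93 to 12.36 in WT and 12.42, 12.34 and 13.41 in p80HT 1 to 3. The largest signals in the sum of p80HT 3 were those of Fcer1g (12.35) and Tyrobp (12.22), neither of them restricted to NK cells. Ncr1 on that array was at 8.40, below p80HT 1 (8.81) and p80HT 2 (8.46). The summed signal of the 4 TCR complex genes, likewise as log2, was 10.48 to 10.80 in WT and 11.92, 11.73 and 13.38 in p80HT. Sums of different lists are not set against each other.

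Of 11 measured B cell genes none passed with all arrays. Of these, 8 were lower in every p80HT mouse than in any WT mouse (11.9% of all genes). The median of the 11 was -0.65, or -0.33 without p80HT 3. Their summed signal was 15.86 to 16.06 in WT and 15.65, 15.57 and 14.33 in p80HT 1 to 3. Cr2, the complement receptor CD21 (-1.99), and Fcer2a, the IgE receptor CD23 (-1.80), were not called with all arrays, and both fell without p80HT 3 (-1.13 and -0.996). Cr2 also fell without p80HT 1 (-2.52). Of 11 macrophage genes, Adgre1, which encodes F4/80 (0.72), and Vsig4 (0.62) rose. The mean signal of Vsig4 was low, at percentile 11.6 of all genes, and the study's tables hold it. The summed macrophage signal was 12.48 to 12.60 in WT and 12.99, 12.97 and 14.68 in p80HT 1 to 3. The call of Adgre1 was lost without any single array but that of p80HT 3 (0.57 to 0.75). Of 7 plasma cell genes Prdm1 rose (0.80) and none fell, with a median of 0.26 (0.06 without p80HT 3). Irf4 was at -0.78, not called, with every p80HT value below WT. The study reports Prdm1 as higher in these samples, so it is not independent evidence. None of 9 dendritic cell genes was called with all arrays, Itgax being at 1.31 and Siglech at -0.44, and Itgax rose without p80HT 3 (0.83), p80HT 1 (1.52) or p80HT 2 (1.58).

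With all arrays none of 8 neutrophil genes was called (median -0.12), with the granule protein genes Mpo at 1.43 and Elane at 1.23. Without p80HT 3 both rose (2.28 and 2.10), and the median was 1.03. Of 4 erythroid genes, Slc4a1 (1.65) and Alas2 (1.30) rose, a call that Slc4a1 lost without any single array but that of p80HT 3 (1.32 to 1.68). Without p80HT 3, Slc4a1 (2.15), Alas2 (1.06) and Klf1 (0.74) rose. The summed signal of 9 salivary and lacrimal gland genes was 10.15 to 10.40 in WT and 10.44, 10.56 and 16.04 in p80HT 1 to 3, and that of 8 fibroblast genes 10.45 to 10.84 in WT and 10.71, 10.80 and 13.68 in p80HT. No gene of either list was called, with Muc19 at 2.23, Dcpp1 at 1.44, Col1a1 at 0.55 and Col3a1 at 0.39. Without p80HT 3 the median change was 0.10 for the gland genes and 0.16 for the fibroblast genes, and Muc19 was at 0.54 (adjusted p = 0.0386) and Dcpp1 at 0.33, both with p80HT 1 and 2 above WT.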

How the data were processed

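RNA of B220-selected splenic cells of 3 p80HT and 3 WT mice was hybridised to 1 array per mouse. The deposited values are log2 probeset signals, made by the authors with RMA in Partek per the labels; versions and settings are not given in the sources used here. Arrays have no read depth, and their number limits the precision. Array medians were 7.68 to 7.81.

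Of 28853 probesets, 21789 have 1 gene symbol in the platform table, 1621 several and 5443 none. For each of 19938 genes the single-symbol probeset with the highest mean over the 6 arrays was used. None of the 31 genes had more than 1 such probeset. Groups were compared with limma 3.58.1 (lmFit and eBayes, 2-sided, R 4.3.3) over all genes, with Benjamini-Hochberg adjustment, and subset differences with exact permutation tests. The threshold of 1.5-fold and p under 0.01 follows the study, which used analysis of variance in Partek.

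The 33 genes and the other lists were chosen with earlier results of these data known. All measured members are named, with at most 4 called genes of each other list by size of change. Lists with no call gave at most 2 genes, by p. Checks were Ms4a1, Cd79a and Nfkb2. Others (Pip, Icos, Zbtb7b, Cd40lg, Gzma, Gzmb, Prf1, Ncr1, Izumo1r, Tnfrsf18, Il4, Il5, Il13, Il7r, Cd200, Cd1d1 and Klf1) were chosen after their values were seen. So were Tyrobp, Gpr83, Ctsw, Eomes, Crtam, Klrc1, Klrk1, Klrd1, Gzmm, Irf4, Ccr7, Klf2 and S1pr1. Alternatives were leaving out each array, a replicate block, ordinary analysis of variance, an intensity trend, array weights, quantile normalization, median centring, averaging a gene's probesets, a filter on signal at the 25th percentile and the adjusted p as the call. Promoter sequences are from RefSeq on GRCm38.p6. They were chosen after the data were seen, in place of CD3 protein sequences, which are not used here. On simulated data with 19938 genes, limma recovered 94 of 100 genes changed 2-fold and 100 of 100 changed 4-fold at the threshold, with 21 false calls and 0 wrong signs. That recovery is not a rate for the measured arrays, where most T cell genes had a larger SD in p80HT than in WT. With all arrays, Cd8a (2.66-fold, SD 0.19 in WT and 1.39 in p80HT), Cd3d (2.45-fold, 0.17 and 1.17) and Thy1 (2.47-fold, 0.27 and 1.25) were not called. Gata3 (2.11-fold, 0.13 and 0.30) was called. Tables and figures were made with Python 3.11.15, pandas 2.3.3 and matplotlib 3.10.9.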

Additional observations from a re-analysis of the deposited data

How the results depend on the processing

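Of the T cell genes, 6 rose with all arrays, beside 243 of all 19938 genes. The number over all genes moved with the setting too and is given in parentheses. Leaving out each array in turn gave 3 to 14 T cell genes, with 3 without WT 1 (158), 14 without p80HT 2 (314) and 14 without p80HT 3 (401). Array weights gave 16 (478), ordinary analysis of variance 2 (119) and the adjusted p as the call 0 (10). An intensity trend gave 7 (248), and quantile normalization (237), median centring (183), the signal filter (219 of 14953) and the mean of probesets (234) gave 6 each. The number that fell was 1 in every setting but the adjusted p as the call (0). The median was 0.54 to 1.20 when each array was left out and 0.60 with array weights. The differences from Cd4 kept their sign when each array was left out, at 0.29 to 0.94 for Cd8a, 0.62 to 0.86 for Cd8b1 and 0.25 to 0.54 for Foxp3. Deviations of same-numbered WT and p80HT mice from their group means correlated at r 0.07, -0.24 and 0.07 over all genes. Those of mice with other numbers correlated at -0.20 to 0.29. With 3 mice per group such values cannot show whether the numbers pair the mice, and the labels state no pairing. With the replicate number as a block 12 T cell genes rose (363 of all genes), and the 3 subset differences were 0.64, 0.74 and 0.40. An exact sign-flip test over the 3 same-numbered differences gave p = 0.25 for each. That is the lowest p this test allows with 3 pairs, so it is not weaker evidence than the permutation test. Genes with small changes turned sign: Cd2 (-0.056 without p80HT 1, -0.049 without p80HT 2, -0.032 centred), Txk (-0.12 without p80HT 3, -0.20 with array weights), Trat1 (-0.15 without WT 1, -0.14 without p80HT 3, -0.21 with array weights, -0.026 centred), Lef1 (-0.029 without WT 1, -0.31 without p80HT 3, -0.31 with array weights, -0.021 with quantile normalization, -0.067 centred), Runx3 (0.046 without WT 1, 0.062 without p80HT 2, 0.064 with array weights, 0.078 with quantile normalization), Maf (-0.040 without WT 1, -0.31 without p80HT 3, -0.40 with array weights, -0.026 centred), Ccr6 (0.032 with array weights) and Cd163l1 (-0.058 without WT 2, -0.080 without WT 3, -0.0039 without p80HT 1, -0.097 without p80HT 2, -0.062 with quantile normalization, -0.084 centred). The highest values of these genes when an array was left out were 0.29 for Cd2, 0.52 for Txk, 0.21 for Trat1, 0.20 for Lef1, 0.28 for Maf and 0.16 for Cd163l1, and the lowest of Runx3 was -0.040. Over all genes, centring moved the median change from -0.02 to -0.12 and the calls from 243 higher and 193 lower to 183 and 342. The cause of these differences was not tested. Without p80HT 3 the standard errors were shorter for all 31 genes.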
